A study of Mus musculus with 6 samples.

Results

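A set of 10 genes of the cardiac contractile apparatus were followed through an eCLIP experiment on the RNA-binding protein ZFP36L2 in MLTC-1 cells, a mouse Leydig tumour line. The genes were Myh6, Mybpc3, Tnnt2, Actn2, Actc1, Myl3, Myom1, Csrp3, Xirp1 and Xirp2. Every peak that the authors' deposited table assigned to one of them by gene name was taken, which gave 224 of the 55449 peaks and 10 of the 10818 named genes. The genes were chosen by the log2 fold changes and adjusted p-values of their peaks in this same ZFP36L2 and IgG comparison, so their counts and fold changes are given as a description, with no test of the group. No member row carried a second gene name.

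The sarcomere is the repeating contractile unit of striated muscle. Thick filaments of myosin slide along thin filaments of actin, the thin filaments are anchored at the Z disc, and the thick filaments are cross-linked at the M band. Many of these proteins have cardiac forms, and their mRNAs are abundant in heart muscle cells. Leydig cells are the steroid-producing cells of the testis and are not contractile. ZFP36L2 is a zinc finger protein whose family recognises AU-rich elements, mostly in 3′ UTRs, and promotes decay of the mRNA.

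In eCLIP, ultraviolet light fixes RNA to the proteins in contact with it, the protein of interest is recovered with an antibody, and the RNA held by it is sequenced. The series had 6 libraries in 4 groups, all of ultraviolet-crosslinked MLTC-1 cells: 2 immunoprecipitations (IP) with an antibody against ZFP36L2, 2 inputs for these, 1 IP with rabbit IgG as the negative control, and 1 input for it. The labels call the line a testicular cell line and name no genetic change, and they do not say whether each library had a culture of its own. The table held 0 columns of library values, so neither the depth behind a peak nor the spread among libraries is known. The sources used here do not say how the inputs entered the comparison.

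In what follows, a log2 fold change is the authors' value of ZFP36L2 over IgG for 1 peak. The direction rests on the name of the table, which puts ZFP36L2 first. Enriched peaks are those with an adjusted p under 0.05 whose log2 fold change was 1 or more, and depleted peaks those under the same p whose value was -1 or less. Every fold change and p-value below comes from the authors' deposited table, and all positions are on mm10, counted from 1.

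The sarcomere peaks lay almost wholly in coding sequence. Of the 224 peaks, 206 (92.0%) were annotated as coding, 12 (5.36%) as 3′ UTR, 5 (2.23%) as intron and 1 as 5′ UTR. Over all peaks of the table, 37.0% were coding, 42.3% intronic and 13.6% in 3′ UTRs. By gene, the coding share ran from 77.8% in Myl3 to 100% in Myh6 and Actc1, and 371 of the 3122 genes with at least 6 peaks (11.9%) had a share of 77.8% or more. The median sarcomere peak was 43 nt long, against 35 nt over all peaks, and together the peaks covered 11371 nt. The base sequence could be read for a single peak, a coding stretch of Xirp2, because it overlapped a promoter window that RefSeq lists on the opposite strand (GRCm38.p6, the assembly behind mm10). It is shown because it is the only member peak whose letters could be checked for the AU-rich core ATTTA, whose letters would be in capitals. It lay at chr2:67516801-67516834 on the plus strand and is written 5′ to 3′:
Xirp2 coding peak: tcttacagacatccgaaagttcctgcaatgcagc
These 34 bases were 52.9% A and T and did not hold ATTTA. The authors' deposited table gave this peak a log2 fold change of 1.49 with an adjusted p of 1, so it was among the peaks that were not called.

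Relative to the rest of the table, the sarcomere peaks were shifted towards ZFP36L2. Their median log2 fold change was 0.52, with quartiles of -0.19 and 1.31 and a range from -3.74 to 4.80. The median over all 55449 peaks was -1.06, with quartiles of -1.90 and -0.06, so the member median stood 1.58 above it. A log2 fold change above 0 was found for 151 sarcomere peaks (67.4%), against 23.6% of all peaks, and 208 (92.9%) lay above the median of the table. The table's median is well below 0, so a peak at 0 is not at the centre of these data. The median over all 20515 coding peaks was -0.72, and that of the 206 coding sarcomere peaks was 0.52.

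**Figure D1:**
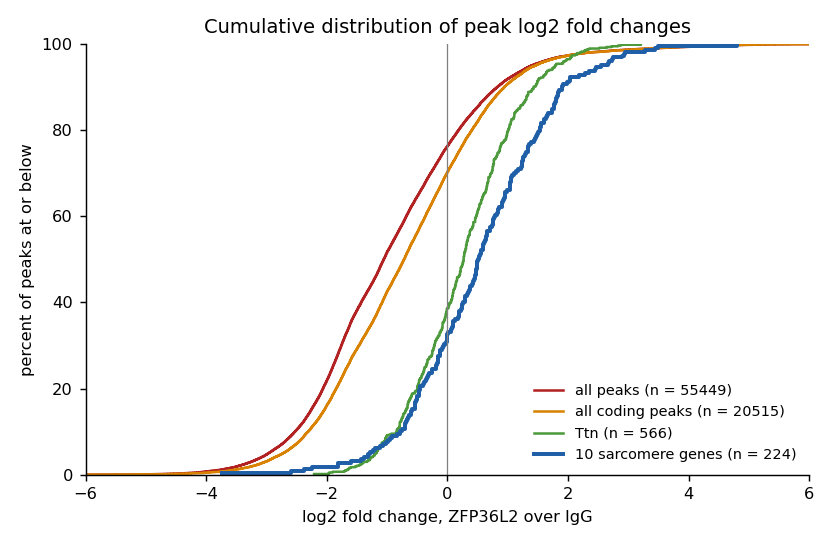
Cumulative percent of peaks (y axis) at or below each log2 fold change of ZFP36L2 over IgG (x axis) for all 55449 peaks, the 20515 coding peaks, the 566 peaks of Ttn and the 224 peaks of the 10 sarcomere genes. The medians are -1.06, -0.72, 0.27 and 0.52, so the sarcomere curve and the Ttn curve lie to the right of the others over most of the range.

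Few of these peaks were called. Of 224 peaks, 12 (5.36%) were enriched, beside 2.22% of all peaks, and 1 (0.446%) was depleted, beside 5.44% of all peaks. Without regard to p, 76 (33.9%) reached a log2 fold change of 1, beside 8.16% of all peaks. Of the 20 sarcomere peaks that reached 2 on this scale, 11 passed the adjusted p. In coding sequence 10 of 206 peaks (4.85%) were enriched, where the share over all coding peaks was 2.35%. In 3′ UTRs it was 2 of 12 (16.7%), where the share over all 3′ UTR peaks was 1.46%. These 2 were a Myl3 peak and an 18 nt Xirp1 peak that touched an enriched coding peak. With touching peaks merged, 10 of 11 enriched peaks were coding. The rule for choosing the genes used this same contrast, so nothing is read from these differences.

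Counted by gene, 8 of the 10 had at least 1 enriched peak, against 5.04% of all named genes, and 1 had a depleted peak, against 17.3%. Genes with many peaks have more chances of a call. A total of 6 peaks was the lowest number in any of the 10, and among the 3122 genes with as many or more these shares were 11.2% and 34.0%. All 10 genes had a median log2 fold change above 0, from 0.24 to 1.81, whereas 441 of those 3122 genes (14.1%) did. Mybpc3 and Actc1 were the pair with no enriched peak, and neither had a peak with a log2 fold change of 1 or more even at an unadjusted p under 0.05 (0 peaks in each).

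**Figure D2:**
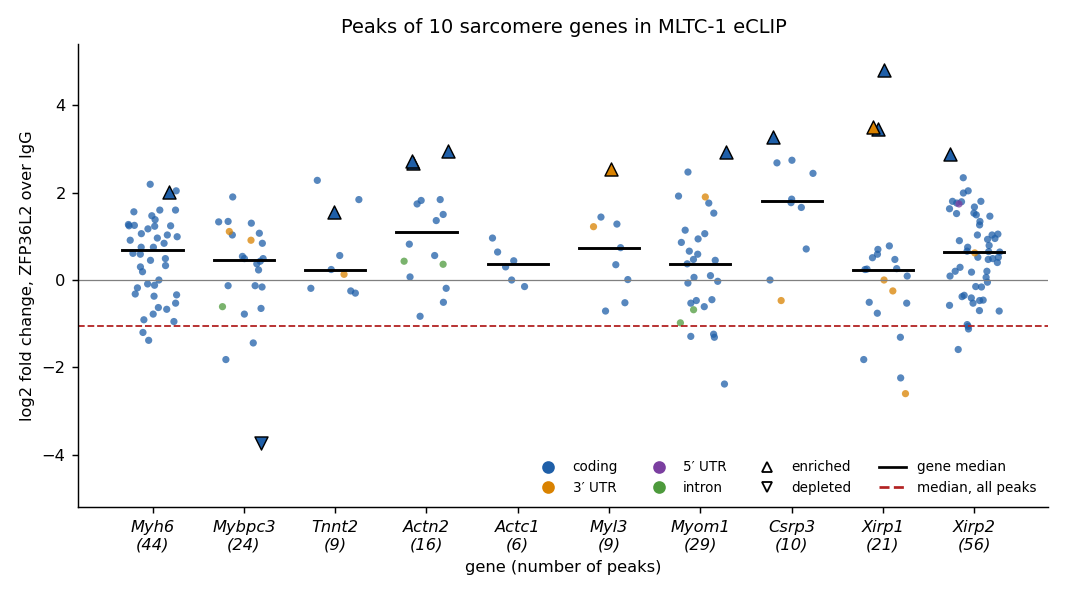
Log2 fold change of ZFP36L2 over IgG (y axis) for each peak of the 10 genes (x axis, number of peaks in brackets), coloured by annotated region, with triangles for called peaks, a black bar for each gene's median and a dashed line at the table's median of -1.06. Every black bar lies above 0, the 12 enriched peaks spread over 8 genes, and the only depleted peak is that of Mybpc3 at -3.74.

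Among the thick filament genes, Myh6, the alpha cardiac myosin heavy chain, is the motor of the atrial and adult mouse ventricular thick filament (ENSMUSG00000040752.16). It had 44 peaks, ranking 43rd among all genes by number of peaks, and all 44 were coding. Their log2 fold changes ran from -1.38 to 2.19 with a median of 0.68, and 29 were above 0. Its 1 enriched peak, at chr14:54960386-54960457, had a log2 fold change of 2.02 and an adjusted p of 0.0023 in the authors' deposited table. Higher folds were not called: the largest was 2.19, with an adjusted p of 0.091. A peak of 8 nt at chr14:54952279-54952286 had a log2 fold change of 2.04 and an adjusted p of 0.054, just outside the threshold. Fold change and p therefore did not order the peaks alike, as Xirp2 peaks at 1.99 and 2.04 had adjusted p-values of 0.13 and 0.50.

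Myl3, the ventricular essential light chain of myosin, had 9 peaks (ENSMUSG00000059741.13), 7 in coding sequence and 2 in the 3′ UTR. Its median log2 fold change was 0.74. In order from the 5′ end, the coding peaks had log2 fold changes of 0.74, 1.28, -0.71, 0.01, 0.35, -0.52 and 1.44, and the 3′ UTR peaks of 2.54 and 1.22. The higher of the UTR peaks, at chr9:110769583-110769694, was enriched in the authors' deposited table with an adjusted p of 0.0018. Myl3 was the only one of the 10 genes whose smallest adjusted p belonged to a 3′ UTR peak, the region in which this protein family is best known to bind.

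Mybpc3, cardiac myosin-binding protein C, which decorates the thick filament, had 24 peaks (ENSMUSG00000002100.15). Of these, 21 were coding, 2 were in the 3′ UTR and 1 was intronic. The median log2 fold change was 0.46 and 15 were above 0, yet none was enriched and the highest was 1.90 with an adjusted p of 0.69. The peak nearest its 5′ end, 13 nt at chr2:91120251-91120263, had a log2 fold change of -3.74 and an adjusted p of 2.5e-04, the only depleted peak of the 10 genes and the lowest value among the 224. The next lowest in this gene was -1.82, with an adjusted p of 0.52. The remaining 23 peaks thus lay within a range that overlapped those of Myh6 and Myl3.

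Among the thin filament genes, Actc1, cardiac alpha actin, had 6 peaks, all coding (ENSMUSG00000068614.7). From the 5′ end their log2 fold changes were 0.96, 0.30, 0.44, 0.64, -0.15 and 0.00, with an adjusted p of 1 for each in the authors' deposited table. The gene had the narrowest range of the 10 and no peak with a log2 fold change of 1 or more. Actin coding sequences are nearly identical between genes, so reads may have been split or moved between copies, and the sources used here do not say where such reads were counted.

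Tnnt2, cardiac troponin T, which ties the troponin complex to tropomyosin, had 9 peaks (ENSMUSG00000026414.13), 8 coding and 1 in the 3′ UTR. From the 5′ end the log2 fold changes were -0.25, 1.84, 2.28, 1.56, -0.30, 0.24, 0.56, -0.19 and 0.13. The 3 values above 1 belonged to neighbouring peaks, and the rest lay between -0.30 and 0.56. The peak at chr1:135849350-135849428 was enriched at 1.56 with an adjusted p of 0.047, the value nearest the threshold among the called peaks. The higher value of 2.28, at chr1:135848873-135848888, had an adjusted p of 0.065 and was not called.

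Of the Z disc genes, Actn2, the alpha-actinin that cross-links actin at the Z disc of striated muscle, had 16 peaks (ENSMUSG00000052374.16), 14 coding and 2 intronic. Its median log2 fold change was 1.09, the second highest of the 10 genes, and 13 peaks were above 0. It had 3 enriched peaks, as many as Xirp1 and more than any other of the 10 genes. The first from the 5′ end, at chr13:12340499-12340577, had a log2 fold change of 2.95 and an adjusted p of 2.0e-04 in the authors' deposited table. The others had values of 2.67 with an adjusted p of 0.032, at chr13:12308910-12308946, and of 2.73 with an adjusted p of 0.023, at chr13:12306292-12306306. The lowest peak stood at -0.83 with an adjusted p of 1.

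Csrp3, muscle LIM protein, a Z disc protein, had the highest median of the 10 genes at 1.81 (ENSMUSG00000030470.15). Its 10 peaks had log2 fold changes, from the 5′ end, of 2.44, 1.66, 1.85, 0.00, 1.77, 2.68, 3.28, 2.74, 0.71 and, in the 3′ UTR, -0.47. The sixth and seventh peaks touched each other. The seventh, at chr7:48832595-48832641, was enriched with an adjusted p of 9.8e-04, while its neighbours at 2.68 and 2.74 had adjusted p-values of 0.079 and 0.091. Of the 9 coding peaks, 7 were above 1, and the others were the 1 at 0.00 and the last, at 0.71.

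Xirp1, a Xin actin-binding repeat protein of striated muscle, had the widest range, from -2.60 to 4.80, and a median of 0.24 (ENSMUSG00000079243.4). Of its 21 peaks, 17 were coding and 4 in the 3′ UTR. The coding peak at chr9:120019334-120019414, the second from the 5′ end, had the highest log2 fold change of the 224, 4.80, and the smallest adjusted p, 2.3e-10. The peaks on either side of it stood at 0.26 and 0.24. The other pair of enriched peaks touched each other near the 3′ end. A coding peak at chr9:120013862-120013939 had 3.45 with an adjusted p of 4.8e-06, and a peak annotated as 3′ UTR at chr9:120013940-120013957 had 3.50 with an adjusted p of 0.0011. The gene lies on the minus strand, so the peak annotated as UTR is upstream of the coding one, and the pair forms 1 unbroken stretch. No other Xirp1 peak was above 0.78, and the lowest, in the 3′ UTR at -2.60, had an adjusted p of 0.36.

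Xirp2, the related Xin repeat protein, had 56 peaks, the most of the 10 genes and 24th among all genes (ENSMUSG00000027022.14). Of these, 54 were coding, with 1 in each UTR. The log2 fold changes ran from -1.59 to 2.89 with a median of 0.63, 40 were above 0 and 20 were at least 1. Only the peak at chr2:67525210-67525270, at 2.89 with an adjusted p of 0.0049, was enriched. A peak at chr2:67509877-67509917 had 2.34 with an adjusted p of 0.059. The lowest value, -1.59, had an adjusted p of 1 and lay next in order to the enriched peak.

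At the M band, Myom1, myomesin, which cross-links myosin at the M band, had 29 peaks (ENSMUSG00000024049.15), 26 coding, 2 intronic and 1 in the 3′ UTR. The median log2 fold change was 0.37, and the range ran from -2.38 to 2.93. The peak nearest the 5′ end, 214 nt at chr17:71022845-71023058, was enriched at 2.93 with an adjusted p of 1.1e-05. The peak that touched it on its 3′ side, at chr17:71023059-71023192, had 0.37 with an adjusted p of 1, the largest gap between touching peaks of the 10 genes. The lowest value, -2.38, had an adjusted p of 0.14 and belonged to the later portion of the gene, where peaks at -1.29, -1.31 and -1.24 also lay. Across the 10 genes, 30 pairs of peaks touched, with a median gap of 0.56 and a largest gap of 2.56 on the log2 scale. For the 15049 touching pairs of all genes these were 0.28 and 4.98.

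**Figure D3:**
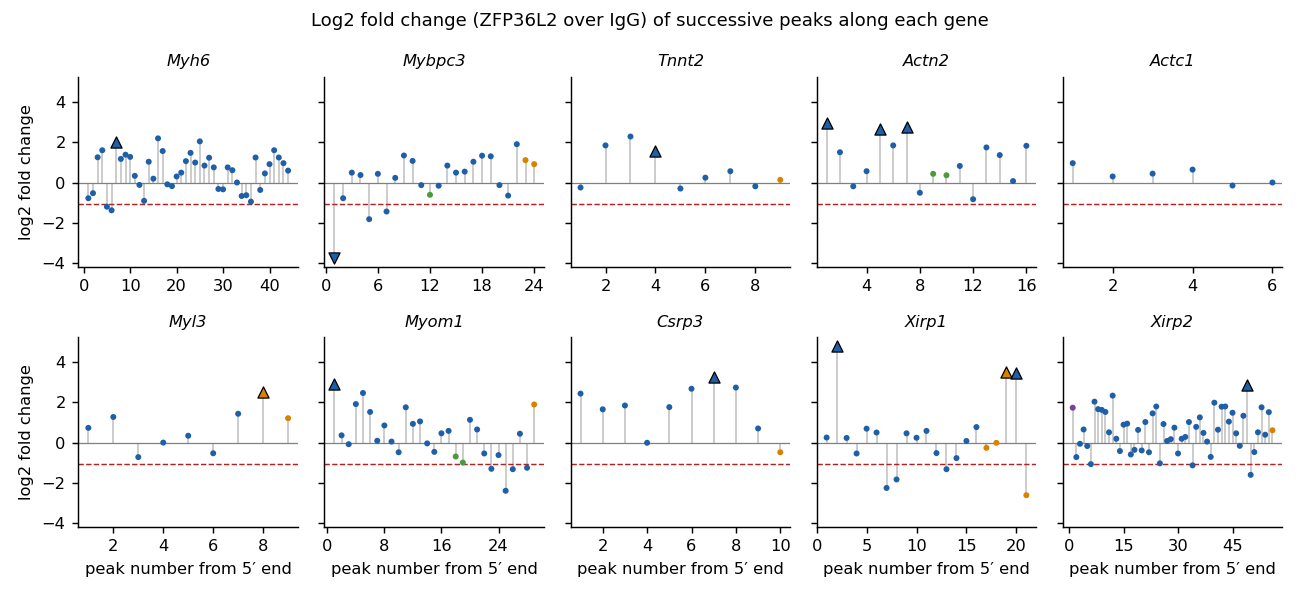
Log2 fold change of ZFP36L2 over IgG (y axis) for successive peaks of each gene, numbered from the 5′ end (x axis), in colours for coding (blue), 3′ UTR (orange), 5′ UTR (purple) and intron (green), with triangles for called peaks and a dashed line at the table's median of -1.06. Enriched peaks stand singly in Myh6, Myl3 and Xirp2, first in line in Actn2 and Myom1, and side by side at the 3′ end of Xirp1.

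**Figure D4:**
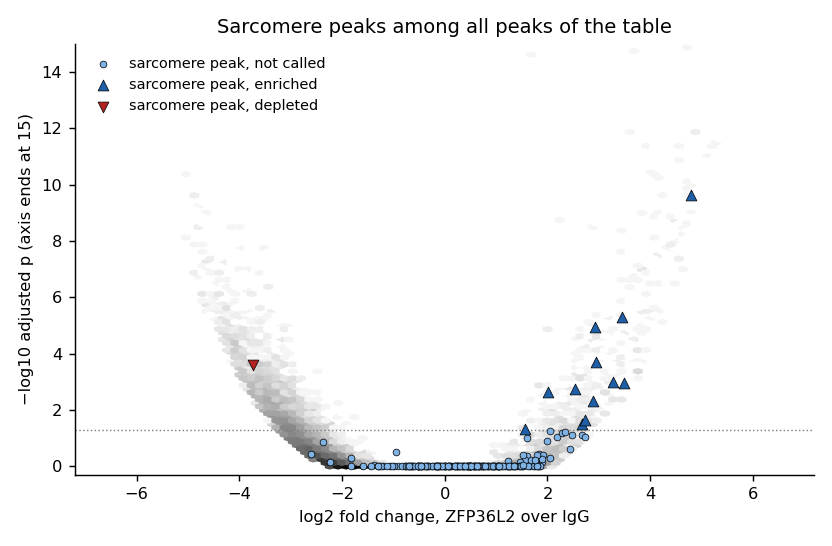
Log2 fold change (x axis) against −log10 of the adjusted p (y axis, ending at 15) for the 224 sarcomere peaks over the density of all peaks in grey, with the threshold of 0.05 dotted. The 12 enriched peaks have log2 fold changes from 1.56 to 4.80, and most sarcomere peaks with positive values lie on the baseline, at an adjusted p of 1.

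Other sarcomere genes were taken from lists by location, and their called peaks ran in both directions. For scale, 5.04% of all named genes had an enriched peak and 17.3% a depleted one. Among genes with at least 6 peaks these shares were 11.2% and 34.0%. Among the other thick filament genes, 6 of 10 had a peak, of which 2 had an enriched peak and 2 a depleted one. Their gene medians had a median of 0.00, and 3 of the 6 were above 0. Ttn, titin, the spring that runs along the thick filament, had 566 peaks, the most of any gene, all coding. Its median was 0.27, with 18 peaks enriched and 1 depleted in the authors' deposited table. Hspb7, a small heat shock protein of heart, had 4 of 15 peaks enriched, with a highest log2 fold change of 3.09 and an adjusted p of 7.4e-06. Smyd1, a methyltransferase of myosin assembly, had 1 depleted peak at -3.54 with an adjusted p of 0.0079. Myh7, the beta cardiac myosin heavy chain next to Myh6 in the genome and close to it in sequence, had 11 coding peaks with a median of -0.72 and a highest value of 0.63. The 2 heavy chains thus differed in number of peaks and in median, but reads common to both cannot be told apart here.

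Of the other thin filament genes, 11 of 13 had a peak, 0 had an enriched one in the authors' deposited table (2 at an unadjusted p under 0.05) and 1 had a depleted one. Tmod1, which caps the slow-growing actin end, had that depleted peak at -3.43 with an adjusted p of 0.0058, though it covered only a few bases. Fhod3, an actin-assembling formin, reached 2.82 with an adjusted p of 0.054. Lmod2, an actin nucleator, reached 2.36 with an adjusted p of 0.25, and Tpm1, tropomyosin, reached 1.82 with an adjusted p of 0.36. Acta1, skeletal alpha actin and a close copy of Actc1, had 5 coding peaks with a median of 0.71. The gene medians of these 11 had a median of -0.45, and 5 were above 0.

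At the Z disc, 15 of 18 other genes had a peak, 1 with an enriched and 2 with a depleted one. Flnc, the muscle filamin, accounted for the enriched call with 6 of 46 peaks, up to 3.57 with an adjusted p of 1.9e-06, and also had 1 depleted peak. Fhl2, a LIM protein, had a depleted intronic peak at -2.67 with an adjusted p of 0.040. Pdlim5 reached -2.86 with an adjusted p of 0.065 and Bag3, a co-chaperone, -2.62 with an adjusted p of 0.12, neither called. The gene medians of these 15 had a median of -0.56, and 4 were above 0.

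At the M band, 10 of 11 other genes had a peak, 1 with an enriched and 4 with a depleted one. Fhl1, a LIM protein of muscle, was the enriched one at 3.39 with an adjusted p of 0.0040. Of those with a depleted peak, Alpk3 had one at -3.46 with an adjusted p of 2.8e-04, Nbr1 at -3.23 with an adjusted p of 0.033, and Trim54 at -3.15 with an adjusted p of 0.037. The gene medians of these 10 had a median of -0.72, and 2 were above 0.

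In the list of intercalated disc and costamere genes, which join muscle cells to each other and to the matrix, 13 of 14 had a peak, 1 had an enriched one and 1 a depleted one. Dsp, desmoplakin, had an enriched peak at 2.98 with an adjusted p of 2.0e-04, and Dmd, dystrophin, 2 depleted peaks of 27, the more significant at -4.19 with an adjusted p of 2.1e-05. Tln2 had -3.01 with an adjusted p of 0.095 and Gja1, a gap junction protein, -2.17 with an adjusted p of 0.14. The gene medians of these 13 had a median of -0.74, and 3 were above 0. Of 13 cardiac transcription factors 10 had a peak, 0 had an enriched one in the authors' deposited table (also 0 at an unadjusted p under 0.05) and 5 a depleted one, and none of the 10 gene medians was above 0. Among all genes with at least 6 peaks, 34.0% had a depleted peak and 14.1% a median above 0. Srf, serum response factor, the regulator of many actin and sarcomere genes, was depleted in 9 of 9 peaks, with a median of -4.07 and a lowest value of -5.76 with an adjusted p of 1.5e-21. Mef2a, Myocd and Mef2c, which act with or beside it in muscle, and Gata4 each had 1 depleted peak.

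Relatives of these genes, most of them non-muscle forms, also had called peaks. The list also held the skeletal muscle genes Tnnt1, Mybpc1 and Mybpc2. Tnnt1 and Mybpc1 had no peak, and Mybpc2 had none called. Of the 20 in the list 17 had a peak, 4 had an enriched one and 2 a depleted one. Myh9, a non-muscle myosin heavy chain, reached 3.93 with an adjusted p of 2.0e-21. Actn1, a non-muscle alpha-actinin, had an enriched peak with an adjusted p of 0.0095 and also had a depleted peak. Tpm4, a cytoskeletal tropomyosin, reached 2.49 with an adjusted p of 8.1e-04, and Actb, beta actin, 1.30 with an adjusted p of 7.6e-04. Tmod3 had a depleted peak at -3.29 with an adjusted p of 0.032. The medians of Myh9 and Actb, 0.70 and 1.04, were near those of Myh6 and Actn2, but that of Actn1 was -0.55. Over the 17 genes the gene medians had a median of -0.55, and 6 were above 0.

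The label of the line was set against marker genes, by which of them had a peak at all, since levels per library were not given. A gene without a peak is not thereby shown to be unexpressed. Beside the marker counts here and below, 5.04% of all named genes had an enriched peak and 17.3% a depleted one. Among genes with at least 6 peaks these shares were 11.2% and 34.0%. The counts of called marker genes are a description, and no list was tested. Of 17 Leydig cell markers 11 had a peak, and those without one were Cyp17a1, Hsd3b1, Hsd3b6, Insl3, Ren1 and Hsd17b3. Their 120 peaks were 83.3% intronic and 4.17% coding. Cyp11a1, the side-chain cleavage enzyme that begins steroid synthesis, had 33 of 35 peaks enriched, all of them intronic, with a smallest adjusted p of 5.5e-157. Lhcgr, the luteinising hormone receptor, and Prlr, the prolactin receptor, had 1 enriched peak each, and Star, which delivers cholesterol for steroid synthesis, had 3 peaks and none called. As many Leydig cell markers, 3 of the 11, had a depleted peak: Nr2f2 at -3.96 with an adjusted p of 1.2e-05, Pdgfra at -3.12 with an adjusted p of 0.026 and Gata4 at -2.72 with an adjusted p of 0.028.

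Of 19 cardiac myocyte markers 18 had a peak, all but Myl7, and their 312 peaks were 82.1% coding. Of the 19, 5 are among the 10 genes described here. Of the others, Ryr2, the calcium release channel, had 12 of 117 peaks enriched, and Atp2a2, the calcium pump, 5 of 30. Mb, myoglobin, had 2 enriched peaks, and Ckm, muscle creatine kinase, and Pln, the pump's inhibitor, had 1 each. Of the 13 other markers with a peak, 8 had a median above 0, and 1 had depleted peaks: Cox6a2, a heart and muscle subunit of cytochrome c oxidase, in 2 of 3 peaks, with -4.37 and an adjusted p of 2.0e-07 for the more significant. The calcium-handling genes Hrc and Casq2 had medians of -1.38 and -0.82 and no called peak. Skeletal muscle markers had a peak in 3 of 17 genes, with 10 peaks and none called in the authors' deposited table (1 gene lower and 0 higher at an unadjusted p under 0.05). Those without a peak included the fast myosins Myh1, Myh2 and Myh4, Myh8, Tnnt3, Tnni2, Tnnc2, Actn3, Mylpf, Pvalb, Atp2a1, Casq1 and the regulators Myog and Myod1. Of 10 smooth muscle markers 6 had a peak, none of them called (0 at an unadjusted p under 0.05), and Actg2, Cnn1, Lmod1 and Mylk had none.

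Markers of other cells also differed in where their peaks lay. All 8 macrophage markers had a peak, 83.7% of the 43 coding, with Lyz2 enriched at 3.34 and an adjusted p of 1.4e-04 and Adgre1 depleted at -3.36 and an adjusted p of 0.018. At an unadjusted p under 0.05, 4 of these 8 genes had a lower peak and 1 a higher one, and the median of their gene medians was -1.19. All 7 fibroblast markers had one, 77.5% of the 80 coding, with enriched peaks in Col1a1, Col1a2 and Postn and depleted peaks in 2 genes. These were Col1a2, whose most significant peak was 1 of its 2 depleted ones at -3.93 with an adjusted p of 4.6e-04, and Pdgfra, given above. Of 6 endothelial markers 5 had a peak. None was enriched and 1, Kdr, had a depleted peak with an adjusted p of 0.019, while at an unadjusted p under 0.05 1 gene had a higher and 2 a lower peak. Sertoli cell markers had a peak in 4 of 11 genes, 20.0% of their 15 peaks coding, with Clu and Ctsl enriched, and germ cell markers in 2 of 9. The Sertoli markers without a peak were Sox9, Wt1, Amh, Fshr, Rhox5, Dhh and Cldn11, and the germ cell markers without one were Dazl, Sycp3, Stra8, Prm1, Prm2, Tnp1 and Acr. Cardiac myocyte, macrophage, fibroblast and endothelial markers thus had mostly coding peaks, as did skeletal muscle (9 of 10 peaks) and smooth muscle markers (31 of 39). Of the peaks of Leydig markers 100 of 120 were intronic, of Sertoli markers 10 of 15 and of germ cell markers 5 of 10. Over all peaks of the table, 42.3% were intronic and 37.0% coding, so the germ cell share was near that of the table. The germ cell peaks came from 2 genes, Ddx4 and Zbtb16, and 6 of the 10 Sertoli intronic peaks from Gata1. Little is therefore read from these 2 shares. The part of any other cell or RNA source in the sarcomere values was not tested.

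**Figure D5:**
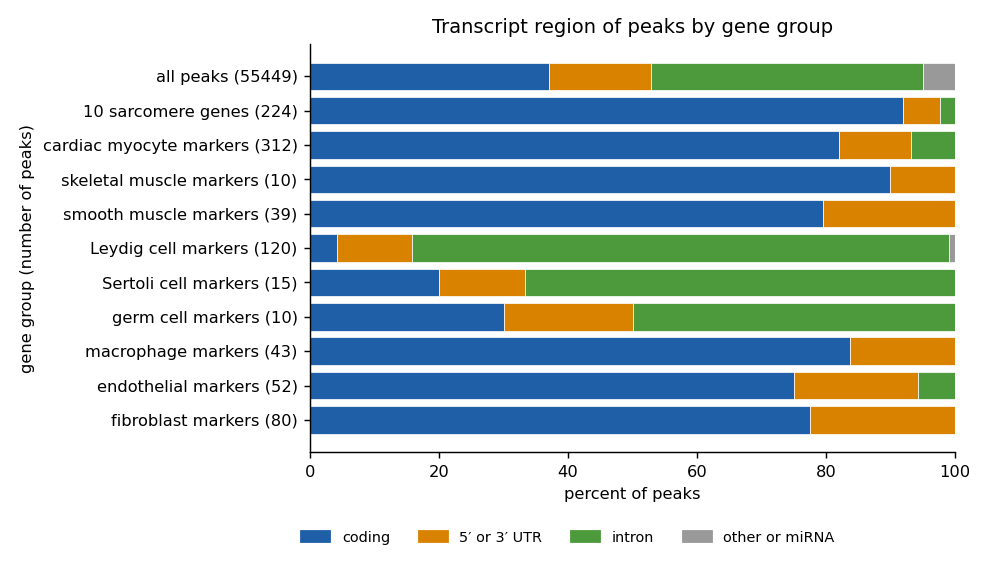
Percent of peaks (x axis) annotated as coding, 5′ or 3′ UTR, intron, or other for all peaks, the 10 sarcomere genes and 9 marker lists (y axis, number of peaks in brackets). Coding peaks make up 92.0% for the 10 genes and 82.1% for cardiac myocyte markers, against 4.17% for Leydig cell markers and 37.0% over all peaks. The bars of the 10 genes and the cardiac myocyte markers overlap, as 5 genes are in both.

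Genes with a comparable pattern were sought in the whole table. A first rule asked for at least 5 peaks with 50% or more enriched. None of the 10 genes met it, as their enriched shares ran from 0% to 18.8%. The nearest to them by median log2 fold change were Eif5b, a translation initiation factor, the acidic nuclear phosphoproteins Anp32e, Anp32a and Anp32b, and Canx, an endoplasmic reticulum chaperone. Their medians, from 1.44 to 1.88, were 0.92 to 1.36 above the member median of 0.52. The rule itself keeps genes with high values, so nothing is read from this distance. A second rule, made after values were seen, kept the 229 genes that had 9 or more peaks, 75% or more of them coding. It held 9 of the 10 genes. Of the 20 with the highest medians, 5 were Csrp3, Actn2, Myl3, Myh6 and Xirp2, and 4 more, Myom2, Tpm1, Des and Ckm, were in the muscle lists. The others included Anp32b, Eef2 and Atp5b, genes of common cellular functions. The 10 genes were chosen by fold changes of this same contrast, so nothing is read from their place in this order.

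RefSeq promoter windows (250 bases before to 50 after an annotated start, GRCm38.p6) were matched by symbol for 9 of the 10 genes, in 11 windows, with none for Xirp1. They are shown because many sarcomere genes are known in heart muscle as targets of the Srf and Mef2 factors. Of these factors, Srf had 9 of 9 peaks depleted, Mef2a 1 of 11 and Mef2c 1 of 10. Among all genes with at least 6 peaks, 34.0% had a depleted peak. A link between peaks on the RNA of these factors and the promoters was not tested. A CArG box, the site Srf is known to bind, was found on either strand in 3 of 11 windows, those of Actc1, Myl3 and Myom1, and in 1.63% of the 32851 windows of all genes. A MEF2 motif was found in 2 of 11, those of Mybpc3 and Xirp2, and in 3.19% of all, and TATAAA in 2 of 11, those of Actc1 and Myh6, and in 13.6% of all. The stretches around the CArG boxes, which are in capitals, are on the strand of the gene at chr2:114052883-114052952 (minus), chr9:110763563-110763632 (plus) and chr17:71019428-71019497 (plus):
Actc1: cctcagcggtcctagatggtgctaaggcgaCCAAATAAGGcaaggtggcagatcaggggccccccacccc
Myl3: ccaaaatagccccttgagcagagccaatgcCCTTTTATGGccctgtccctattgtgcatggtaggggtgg
Myom1: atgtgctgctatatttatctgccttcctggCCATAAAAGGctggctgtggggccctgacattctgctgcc
The boxes end 38, 76 and 90 bases before the annotated starts. For Myom1 this is a start within the gene, whose RefSeq span begins further upstream, at chr17:71003332. A match of letters is a description of the promoter, and eCLIP measures RNA, so the table holds no value for these sites.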

How the data were processed

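The data were 1 table of peaks on mm10 from eCLIP of ZFP36L2 and IgG in MLTC-1 cells. Per the file headers, the authors deposited for each peak its position, strand, gene, annotated region, a log2 fold change, and, as −log10, the p-value before and after adjustment. The submitters' processing notes name STAR 2.7.7a, DESeq2 1.34.0, UMI-tools 1.1.1 and cutadapt 3.2 without saying what each did. The sources used here do not give the peak caller, the normalization, the use of inputs or the handling of reads shared by near-identical genes, each of which can move a fold change. There were 0 columns of library values, so no test of counts was run and the authors' p-values were taken as they stand.

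From the table, peaks were matched to the 10 genes by symbol and counted, and medians and calls were set beside those of all peaks, with Python 3.11.15, pandas 2.3.3 and numpy 2.4.6. The counting was tested on simulated data. The members and the gene and marker lists were chosen with earlier results of these data known. Named were all 10 genes, up to 4 other genes of each location list by adjusted p, marker genes with an enriched peak or none, and for each gene its most significant, its lowest and its depleted peaks. Other peaks of the 10 genes, Myh7, Acta1, Star, Hrc, Casq2, marker genes with a depleted peak and the genes of the second likeness rule were named after their values were seen. A few genes that fall under these rules are left out of the text. Alternatives changed the thresholds, centring, merging of touching peaks and choice of peaks.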

Additional observations from a re-analysis of the deposited data

How the results depend on the processing

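Of 80 alternative values, 74 were counted as the same and 6 as moved, each of the 6 through the construction of the alternative. Many of the 74 could not move either. Keeping rows with 1 gene name left the member peaks unchanged, and thresholds do not enter the median or the intronic share. The limits were also wide, as 8 enriched peaks with 1 peak per gene counted as the same as 12. The 74 are therefore no measure of robustness. A count was the same within 1.5 times the reported count, and a median within 0.1 on the log2 scale. A percent was the same inside the exact 95% binomial interval of the reported percent. Centring on the median of all peaks set the member median at 1.58. Keeping 1 peak per gene, that with the smallest adjusted p, gave a median of 2.71, 80.0% enriched and 0% intronic. Keeping coding peaks only, chosen after seeing the data, gave 100% of enriched peaks in coding sequence and 0% of peaks in introns. Merging touching peaks left 194. No paired analysis was possible because the table has no columns of libraries, and for the same reason no library could be left out. IgG had 1 IP library, and depth per peak is unknown, so a peak that was not called is not shown to be unchanged.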
